A study of Mus musculus with 14 samples.

Results

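The collagen gene family was examined across sorted mouse skin cells, as 44 genes of the 24537 listed in each of the deposited expression tables. The members are the rows whose symbol consists of Col, a number, the letter a and a number. The study sequenced RNA from 14 sorted samples, of which 8 were skin regulatory T (Treg) cells, the Foxp3-expressing suppressive T cells, and 6 were hair follicle stem cells (HFSC). Its title concerns glucocorticoid signalling in Treg cells and stem cell activation and hair growth. The Treg samples were 3 from WT mice (GR WT) and 5 from Foxp3YFP-Cre GRfl/fl mice (GR KO), taken 24 hr after hair was removed. The HFSC samples, sorted as CD34+ and ITGA6-high cells, were 3 GR WT and 3 GR KO, taken 4 days after hair removal. In the GR KO mice the Cre recombinase is driven by Foxp3, so the floxed glucocorticoid receptor (GR) gene is targeted in Treg cells and not in HFSC. Every animal had been depilated, and the WT mice are not said to carry the Cre allele. The labels do not say that replicates are separate mice, and the spread behind each p-value may be partly technical.

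Collagens are extracellular proteins built of 3 chains wound into a triple helix, and each gene encodes 1 chain. Fibrillar collagens (types I, III and V in skin) are made by dermal fibroblasts and form the banded fibrils that give the dermis its strength. Basement membrane collagens form sheets under epithelia and around vessels, and keratinocytes add collagen XVII, which spans their membrane at the hemidesmosome, and collagen VII, which forms the anchoring fibrils below it. T cells are not known for making either kind. Collagen XVII is also known for holding hair follicle stem cells in their niche. Epithelial collagens (Col17a1, Col7a1, Col4a5 and Col4a6) are therefore compared with fibrillar fibroblast collagens (Col1a1, Col1a2, Col3a1, Col5a1 and Col5a2). This sets chains known from keratinocytes against chains known from dermal fibroblasts within the same library. The set names follow this background and do not name the cells that the RNA of a library came from.

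The 250 bases before the start site are printed for 2 epithelial and 2 fibrillar genes, to show the start regions of genes from both contrasted sets. They are from RefSeq on GRCm38.p6, which places the starts, and lie at chr19:47692043-47692292 (minus strand) for Col17a1, chr9:108953336-108953585 (plus) for Col7a1, chr1:45311288-45311537 (plus) for Col3a1 and chr6:4505368-4505617 (plus) for Col1a2. The Col7a1 window ends short of the deposited transcript, which starts at 108953745, while the other 3 abut theirs. Capitals mark each match to the TATA box (TATAAA), to the CCAAT box on either strand, and to the GC box (GGGCGG).
Col17a1: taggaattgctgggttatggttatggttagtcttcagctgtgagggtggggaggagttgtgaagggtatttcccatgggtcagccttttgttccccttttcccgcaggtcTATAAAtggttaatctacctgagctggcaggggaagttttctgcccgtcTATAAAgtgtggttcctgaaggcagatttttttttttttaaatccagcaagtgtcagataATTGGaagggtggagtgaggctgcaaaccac
Col7a1: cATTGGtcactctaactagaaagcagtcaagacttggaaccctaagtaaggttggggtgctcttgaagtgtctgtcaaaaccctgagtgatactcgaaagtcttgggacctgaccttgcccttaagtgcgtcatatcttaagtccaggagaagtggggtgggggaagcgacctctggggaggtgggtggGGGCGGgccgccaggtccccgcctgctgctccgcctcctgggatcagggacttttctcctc
Col3a1: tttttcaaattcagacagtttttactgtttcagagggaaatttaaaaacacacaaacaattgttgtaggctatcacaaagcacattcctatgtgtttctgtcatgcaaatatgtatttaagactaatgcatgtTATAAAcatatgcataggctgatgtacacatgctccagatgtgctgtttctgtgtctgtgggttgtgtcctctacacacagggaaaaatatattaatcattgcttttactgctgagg
Col1a2: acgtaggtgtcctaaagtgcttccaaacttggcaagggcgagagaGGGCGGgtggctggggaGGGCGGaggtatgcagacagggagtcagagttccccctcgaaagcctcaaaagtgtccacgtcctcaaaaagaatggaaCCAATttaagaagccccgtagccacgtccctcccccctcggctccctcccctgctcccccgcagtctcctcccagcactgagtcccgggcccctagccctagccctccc

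TATAAA and GGGCGG each occurred in 1 gene of each pair. The Col17a1 window held TATAAA at 2 places, 140 to 135 and 91 to 86 bases before the start, and was 46.0% G and C. The Col3a1 window, with 35.2% G and C, held TATAAA once, while Col1a2 (62.0%) and Col7a1 (56.4%) held GGGCGG and a CCAAT box and no TATAAA. Of the 44 symbols, 35 matched this table, with 38 windows of the same length. TATAAA was found on either strand in 5 of those 38, against 12.4% of all 32851 windows. CCAAT was found in 13 of 38 against 33.8% of all windows, and GGGCGG in 22 of 38 against 32.7%. The AP-1 site TGANTCA was in 1 window of 38, that of Col6a1, against 6.75% of all. The glucocorticoid response element (AGAACA, any 3 bases, then TGTTCT) was in 0 of 38 and in 0.00913% of all windows. Its core hexamer AGAACA, which lies within it, was in 2 of 38 (Col20a1 and Col9a1) and in 16.1% of all windows. All motifs were searched on both strands, and a match or its absence in these letters says nothing of binding.

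Values are TPM (a level scaled to transcript length and library size). The libraries held 9.17 to 14.46 M tags in Treg and 4.50 to 7.99 M in HFSC. Foxp3 stood at 137 to 281 TPM in Treg and at 0 to 0.357 TPM in HFSC, and the sort markers Cd34 and Itga6 stood at 109 to 225 and 82.7 to 118 TPM in HFSC. The targeted gene Nr3c1 was at 170.5, 233 and 230 TPM in Treg GR WT and at 106, 125, 106, 171 and 139.5 TPM in Treg GR KO, so the groups overlapped (adjusted p = 0.0722, limma), and the RNA that remained was not checked for the deleted part. In HFSC, Nr3c1 was at 41.6 ± 7.07 TPM in GR WT and 43.6 ± 6.89 TPM in GR KO (SD, n = 3 each). On the first principal component of Treg (30.1% of the variance), GR WT scored -22.9, -12.35 and -52.1 and GR KO 9.56 to 24.5. The genotypes were thus separated on it, and WT replicate 3 stood apart from the rest. In HFSC, WT replicate 1 stood apart (37.7%, -59.8 against 4.02 to 17.7). Collagen differences that move by over 1.5 times without the library that stood apart in their table are given without it too.

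The family divided sharply by sort. HFSC held 1631 to 2097 TPM of summed collagen RNA per library, and Treg held 38.1 to 245 TPM. Col17a1 alone made 56.4% to 63.0% of the HFSC sum, and no more than 7.79% of the Treg sum. The fibrillar set made 2.26% to 3.36% of the sum in HFSC and 23.3% to 54.6% in Treg. Levels set across the tables are descriptive, since the tables were made separately. A mean of at least 1 TPM over a table was required for testing. In Treg 15 collagens passed and in HFSC 23, of which 11 passed in both and 17 of the 44 in neither. In Treg 9 members, and in HFSC 7, were at 0 in every library.

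**Figure D1:**
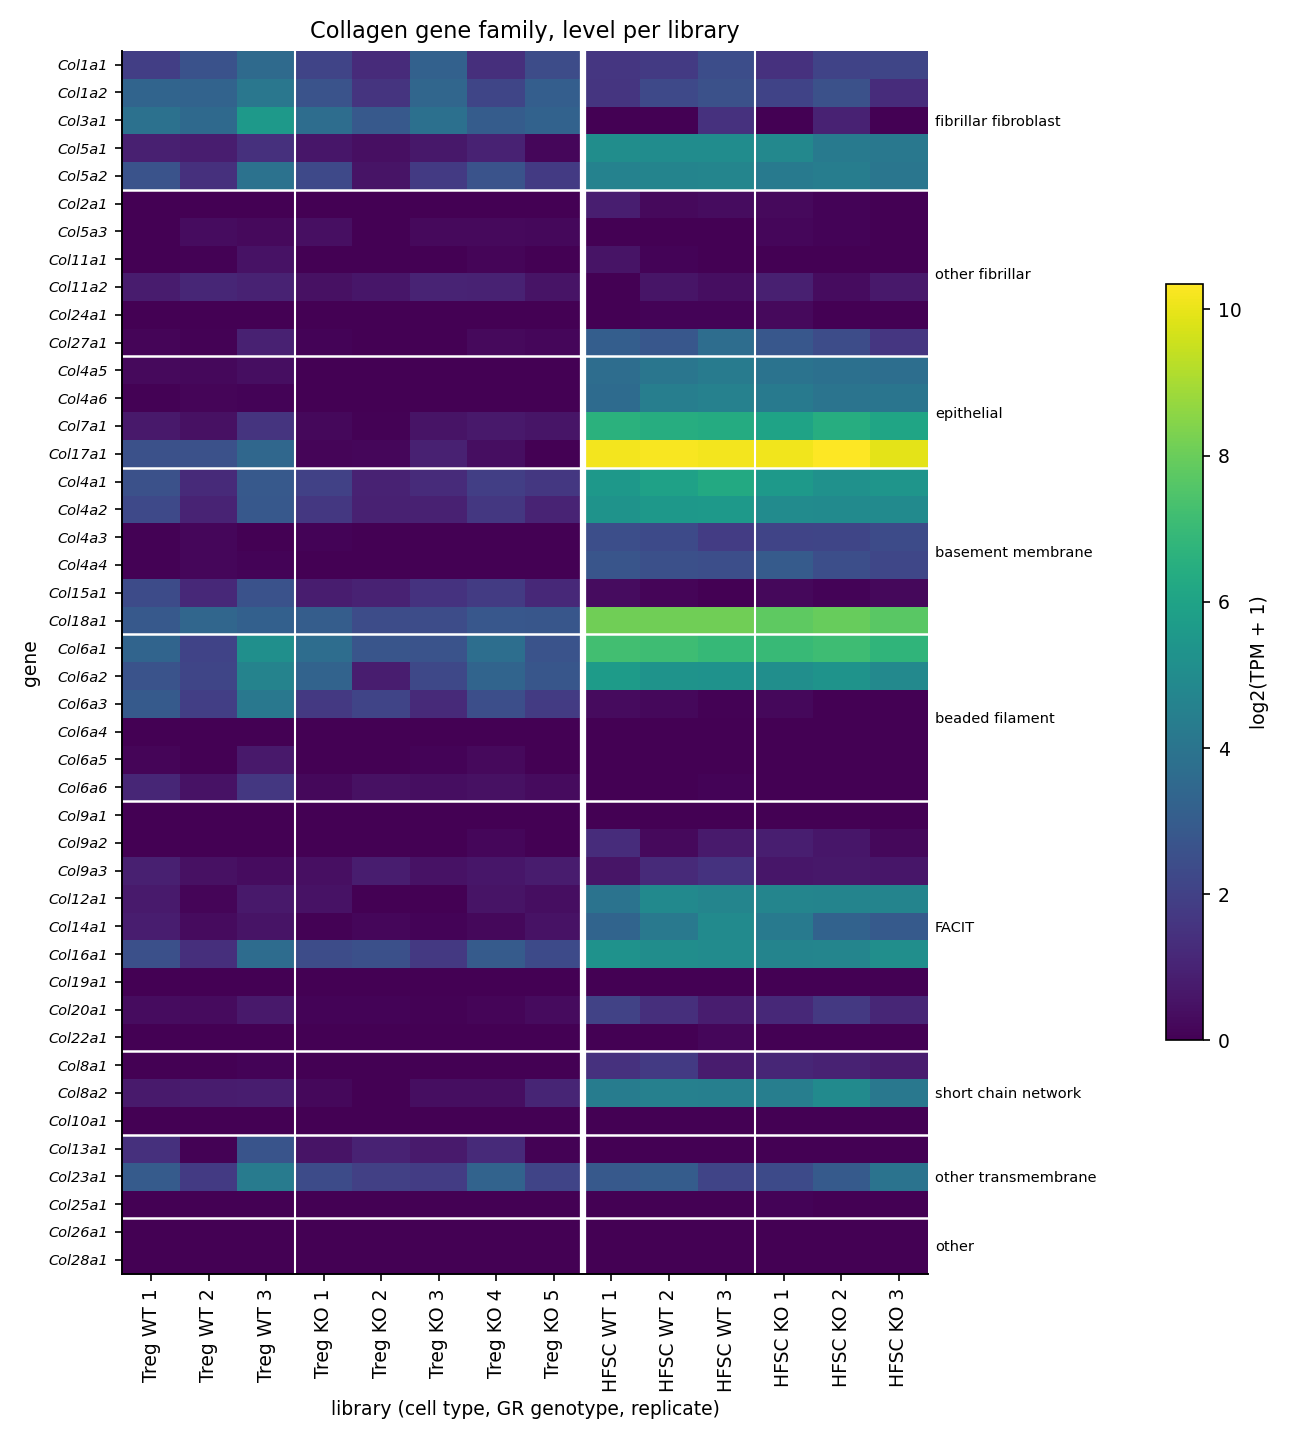
Level of each collagen (rows, grouped by role) in each of the 14 libraries (columns), as log2(TPM + 1). Col17a1 is the strongest row in HFSC and lies between 4.90 and 9.95 TPM in Treg GR WT and at or below 0.932 TPM in Treg GR KO.

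In the Treg comparison, Col17a1 was the single collagen of the 15 tested that passed the test. It fell in the GR KO libraries, from 6.60 ± 2.901 TPM (SD, n = 3) to 0.296 ± 0.373 TPM (SD, n = 5), to 4.48% of the WT mean. The other 14 tested collagens had lower point estimates in GR KO as well, but none passed the threshold of adjusted p 0.05. Keratinocyte and macrophage transcripts were lower in the same libraries.

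Col17a1 (NM_007732, mm10 chromosome 19, 47646341 to 47692042, minus strand) encodes the hemidesmosome collagen whose promoter is printed above. Its level was 4.90, 4.96 and 9.95 TPM in the 3 GR WT libraries. In the 5 GR KO libraries it was 0.090, 0.146, 0.932, 0.312 and 0 TPM. Every GR KO library lay below every GR WT library, and GR KO replicate 3 was the highest of its group. In recovered tags, 956 fell on the gene in GR WT and 72 in GR KO, and the 0 tags of GR KO replicate 5 lie under a floor of 3 tags, worth 0.051 to 0.077 TPM over the Treg libraries. The log2 fold change on the log2(TPM + 1) scale was -2.53 (SE 0.33, 95% interval -3.25 to -1.80, limma with Benjamini-Hochberg adjusted p = 0.00326). Its size depends on the pseudocount, at -4.46 with 0.1 TPM and -1.11 with 5 TPM, and voom on recovered tags gave -5.62. Without WT replicate 3 it was -2.23 (adjusted p = 0.0216), and the adjusted p ranged from 0.00299 to 0.0462 over the settings that tested the gene.

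Over the Treg table, 1.51% of the 11579 tested genes passed the threshold, with 1.31% lower and 0.199% higher in GR KO. Among collagens it was 1 of 15, lower, and 0 of 15 higher. The voom fit called 2.18% of all genes, 1.85% lower, and the same 1 collagen. An unadjusted p under 0.05 was reached by 5 of 15 (Col17a1, Col1a2, Col6a3, Col3a1 and Col18a1), against 14.1% of all genes, and all 5 were lower, against 8.93%. Groups did not overlap, with GR KO lower, for 1 of 15 (Col17a1) against 5.10% of all genes, and with GR KO higher for 0 of 15 against 3.42%. Among untested members, each with a mean under 1 TPM, Col4a4, Col4a5, Col4a6, Col6a6 and Col20a1 were also lower in every GR KO library. The 5.10% covers tested genes only, and no share was computed over untested genes, so nothing is drawn from these members. Some rest on few tags, such as Col4a4 (16 in GR WT and 0 in GR KO) and Col20a1 (44 and 20). All 15 log2 fold changes were negative, against 55.8% of all genes, and their median was -0.68 against -0.04. That count of 15 was 12 without WT replicate 3 and 14 without GR KO replicate 3. WT replicate 3 held the highest level of 14 of the 15 tested members, Col18a1 being the exception. Of the 15, Col17a1 and Col13a1 reached 1 TPM through the GR WT mean only, so those that passed the filter are not a neutral sample of the family. Just inside the filter stood Col13a1 (mean 1.33 TPM) and Col15a1 (2.25 TPM), and just outside it Col11a2 (0.795 TPM) and Col5a1 (0.744 TPM).

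**Figure D2:**
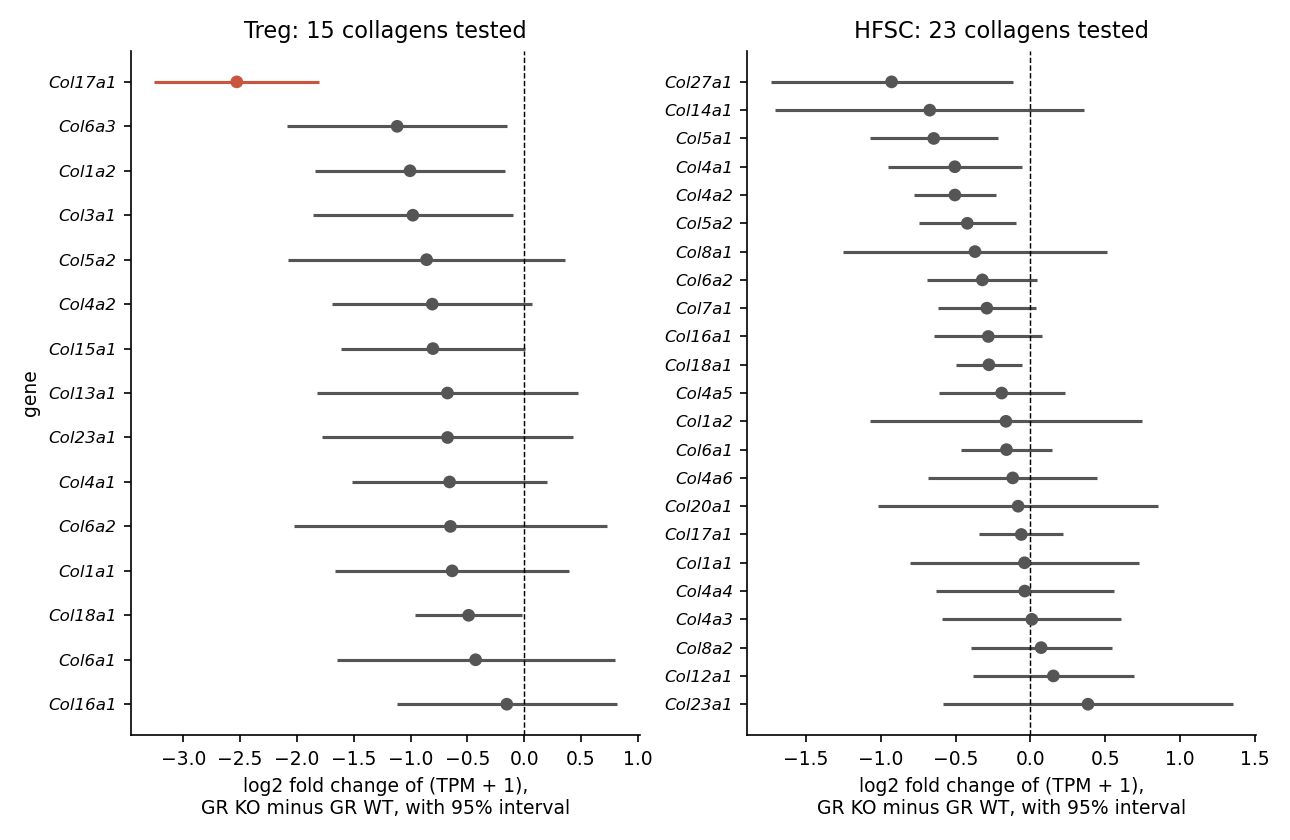
Log2 fold change of each tested collagen, GR KO against GR WT, with its 95% interval, for Treg (15 genes) and HFSC (23 genes); negative values are lower in GR KO. Col17a1 in Treg, at -2.53, is the one collagen past the adjusted threshold in either table, and in HFSC it stands at -0.06.

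The other epithelial collagens were near the floor in Treg and were not tested. Col7a1, the anchoring fibril collagen, was at 0.652, 0.379 and 1.92 TPM in GR WT and at 0.174, 0.029, 0.476, 0.626 and 0.497 TPM in GR KO, and the groups overlapped. Col4a5, a basement membrane chain, was at 0.214, 0.158 and 0.299 TPM in GR WT and at 0 in all 5 GR KO libraries, which is 38 tags against 0. Its partner chain Col4a6, which lies 1343 bases away on the other strand of chromosome X, had 12 tags in GR WT and 0 in GR KO. For Col4a5, 3 tags are worth 0.043 to 0.064 TPM, so these GR KO levels lie under that limit, which covers counting error only.

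No fibrillar fibroblast collagen passed the test in Treg (0 of 4 tested). Col1a1 (mm10 chromosome 11, 94936224 to 94953042, plus strand) and Col1a2 encode the chains of collagen I, the main fibril protein of dermis. Col1a1 was at 2.84, 5.07 and 11.04 TPM in GR WT and at 3.33, 1.41, 8.25, 1.62 and 4.31 TPM in GR KO. Its groups overlapped (log2 fold change -0.63, SE 0.47, limma adjusted p = 0.583), and the log2 fold change was -0.19 without WT replicate 3. Col1a2 was at 9.22, 8.95 and 16.0 TPM in GR WT and at 5.22, 1.98, 9.73, 3.51 and 7.52 TPM in GR KO, where only GR KO replicate 3 reached into the WT range (-1.005, adjusted p = 0.274). Col3a1 (NM_009930, mm10 chromosome 1, 45311538 to 45349706, plus strand), the collagen III gene, had the highest mean of the family in Treg. It was at 13.5, 10.7 and 45.5 TPM in GR WT and at 12.1, 6.35, 13.1, 7.13 and 8.49 TPM in GR KO. The high GR WT mean came from replicate 3, and the log2 fold change was -0.98 (adjusted p = 0.315) with it and -0.37 without it. Col5a2, a collagen V chain that helps set fibril width, gave -0.86 (adjusted p = 0.524) and -0.23 without WT replicate 3. Col5a1, the other collagen V chain, had means of 1.12 TPM in GR WT and 0.520 TPM in GR KO and was not tested.

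Summed per library, the contrast between the sets in Treg rested mainly on Col17a1. That gene alone held 4.90, 4.96 and 9.95 TPM of the epithelial sums in GR WT. The sums and ratios are therefore not separate from its own difference, and Col7a1 of the same set overlapped between genotypes. The epithelial set held 5.80, 5.61 and 12.2 TPM in GR WT and 0.264, 0.175, 1.41, 0.938 and 0.497 TPM in GR KO, with no overlap. The fibrillar set held 31.7, 27.2 and 88.3 TPM in GR WT and 25.1, 10.5, 34.0, 18.6 and 22.9 TPM in GR KO, with overlap. Fibrillar RNA per epithelial RNA was therefore 5.46, 4.85 and 7.22 in GR WT and 94.98, 60.3, 24.1, 19.8 and 46.0 in GR KO. The lowest GR KO ratio lay above the highest GR WT ratio. The fibrillar mean was 49.1 ± 34.1 TPM in GR WT (SD, n = 3) and 22.2 ± 8.61 TPM in GR KO (SD, n = 5), and it was 29.5 TPM in GR WT without replicate 3. These sums are given with no test, because the sets were chosen with earlier results of these data known.

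**Figure D3:**
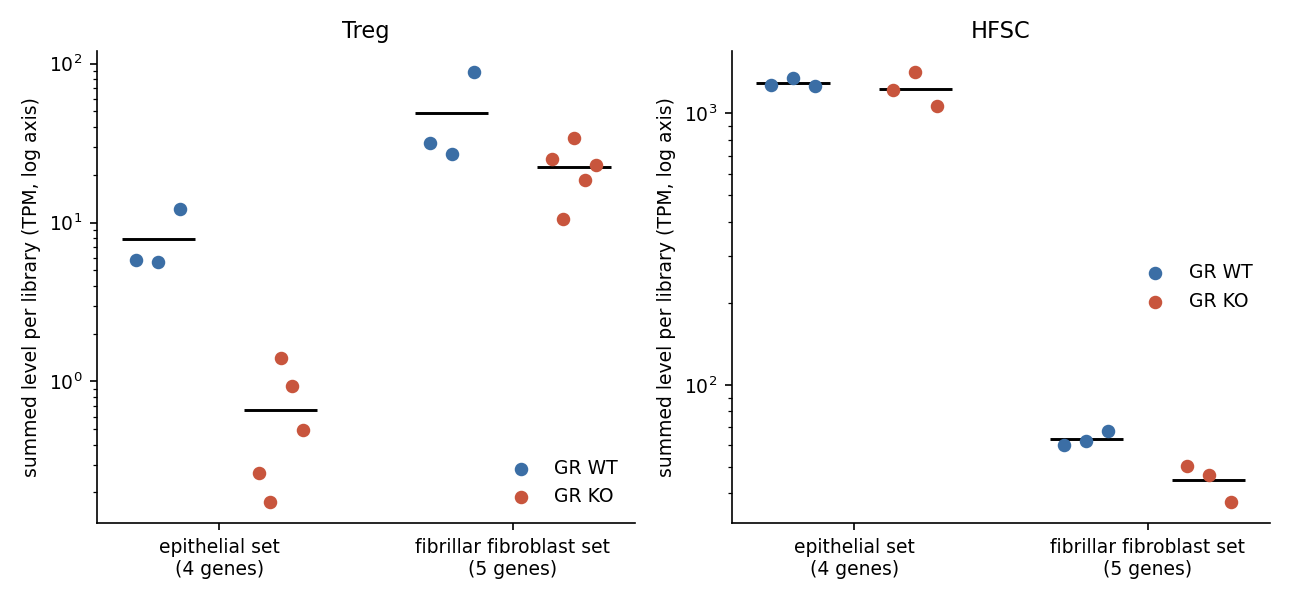
Summed level of epithelial and of fibrillar fibroblast collagens per library, in TPM on a log axis, by cell type and genotype; each point is 1 library and each bar a group mean. In Treg the epithelial sums of GR KO (0.175 to 1.41 TPM) lie below those of GR WT (5.61 to 12.2 TPM) while the fibrillar sums overlap. In HFSC the fibrillar sums of GR KO (37.2 to 50.3 TPM) lie below those of GR WT (60.02 to 67.9 TPM), and most of these sums is Col5a1 and Col5a2.

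Markers of keratinocytes and of macrophages moved with Col17a1 in Treg. Of 8 basal keratinocyte markers, Col17a1 among them, 7 passed the test, all lower in GR KO, and Sfn (49.6 against 45.3 TPM) did not. Krt15, a keratin of follicle stem cells, fell from 163.7 ± 68.5 to 6.75 ± 7.61 TPM (log2 fold change -4.76, limma adjusted p = 0.00214). The 7 markers other than Col17a1 summed to 387 to 651 TPM in GR WT and to 47.7 to 127 TPM in GR KO. Set against the HFSC mean, Treg Col17a1 stood at 0.425%, 0.430% and 0.863% in GR WT and at 0% to 0.081% in GR KO. On the same footing Krt5 stood at 0.816% to 1.31% in GR WT and 0.021% to 0.333% in GR KO, and Krt15 at 2.55% to 5.06% and 0.029% to 0.421%. Krt14 stood at 1.64% to 3.10% in GR WT and 0.059% to 0.903% in GR KO. Its highest GR KO value was in replicate 2, where Col17a1 stood at 0.013%. All 7 macrophage markers were lower in GR KO without overlap, against 5.10% of all genes. The test was passed by 4 of them (Cd14, Mrc1, Fcgr1 and Lyz2). The 7 summed to 187 to 308 TPM in GR WT and to 52.3 to 136 TPM in GR KO. Of 6 Treg markers 1 passed the test, lower in GR KO (Il2ra). In such bulk samples, fewer cells of a type and less RNA per cell cannot be told apart, and the part of other cell types in the Col17a1 result was not tested.

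Dermal fibroblast markers gave smaller differences that did not pass the test. Of 14 entries 11 were tested, 0 passed, and all 11 point estimates were negative. An unadjusted p under 0.05 was reached by 4, against 14.1% of all genes. Groups did not overlap, with GR KO lower, for 1, against 5.10% of all genes. The 12 markers other than Col1a1 and Col3a1 summed to 209, 131 and 272 TPM in GR WT and to 92.2, 36.7, 107, 88.7 and 145 TPM in GR KO. The highest GR KO sum thus passed the lowest GR WT sum. Lum, a small proteoglycan that binds collagen fibrils, was at 11.04 ± 0.857 TPM in GR WT and 4.00 ± 2.98 TPM in GR KO without overlap (-1.47, adjusted p = 0.137). Dcn, a related proteoglycan, was at 91.1 ± 14.2 and 42.6 ± 27.8 TPM (-1.38, adjusted p = 0.274). Of these 12 markers, 1 was at 0 in 1 of the 8 Treg libraries. Dermal papilla markers summed to 719, 158 and 1253 TPM in GR WT and to 204 to 538 TPM in GR KO, most of it Crabp1. Of 3 tested, 0 passed and 1 was at an unadjusted p under 0.05, against 14.1% of all genes. WT replicate 3 was the highest there too. Rspo3, the one with an unadjusted p under 0.05, was at 5.93 and 0.915 TPM (-1.62, adjusted p = 0.182). It reached the 1 TPM filter through the GR WT mean only, so its difference is not neutral evidence.

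**Figure D4:**
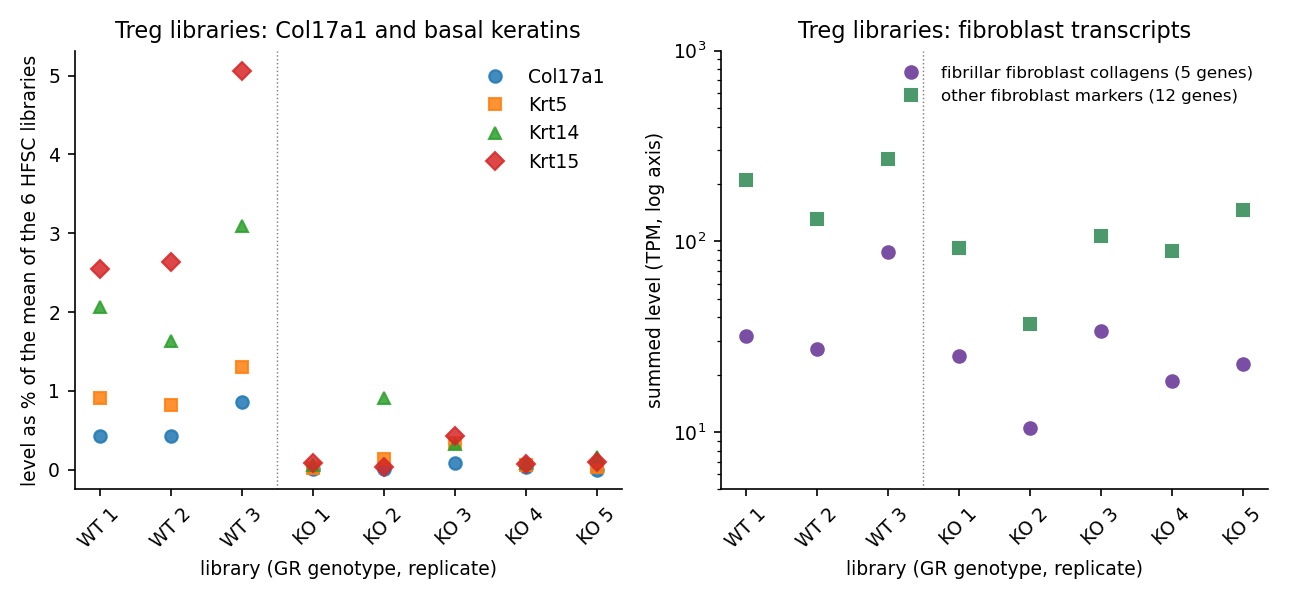
Treg libraries along the x axis, with Col17a1 and 3 keratins as a percent of the mean of the 6 HFSC libraries (left) and the summed TPM of 5 fibrillar collagens and of 12 other fibroblast markers on a log axis (right). Col17a1 stands at 0.425% to 0.863% in GR WT and at most 0.081% in GR KO, whereas the fibrillar sums of the genotypes overlap.

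Basement membrane collagens did not pass the test in Treg (0 of 4). Col18a1, which carries the endostatin domain, was at 6.42, 9.81 and 7.96 TPM in GR WT and at 7.22, 4.25, 4.28, 5.92 and 5.73 TPM in GR KO. Only GR KO replicate 1 reached into the GR WT range (-0.49, SE 0.21, adjusted p = 0.340). Col15a1, its relative in vessel and muscle basement membranes, was at 4.20, 1.28 and 5.18 TPM in GR WT and at 0.783, 0.994, 1.83, 2.49 and 1.26 TPM in GR KO (-0.80, adjusted p = 0.357, and -0.52 without WT replicate 3). Col4a1 and Col4a2, the chains of the common basement membrane network, gave -0.66 and -0.81 (adjusted p = 0.489 and 0.395), and -0.32 and -0.42 without WT replicate 3. The 4 endothelial markers tested also gave 0 calls, 1 at an unadjusted p under 0.05, against 14.1% of all genes.

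The beaded filament chains of collagen VI were among the most abundant collagens in Treg, and 0 of 3 tested passed. Col6a1 was at 9.02, 3.27 and 34.4 TPM in GR WT and at 12.03, 5.63, 5.23, 12.3 and 5.35 TPM in GR KO. Its log2 fold change was -0.43 (adjusted p = 0.788) and turned to 0.38 without WT replicate 3. Col6a2 was at 5.29, 3.44 and 23.5 TPM in GR WT and at 8.87, 0.780, 3.72, 9.04 and 5.72 TPM in GR KO, and it too turned, from -0.65 (adjusted p = 0.693) to 0.09. Col6a3, the largest chain of the filament, was at 6.57, 2.75 and 16.7 TPM in GR WT and at 2.29, 3.35, 1.38, 4.59 and 2.46 TPM in GR KO (-1.12, adjusted p = 0.299). Its direction was negative without WT replicate 3 as well, at -0.54. The Col6a3 level per Col6a1 level was 0.685 ± 0.183 in GR WT and 0.376 ± 0.160 in GR KO, with overlap. Col6a6, a chain related to Col6a3, averaged 1.27 TPM in GR WT and 0.299 TPM in GR KO, without overlap, and was not tested.

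The remaining tested collagens of Treg overlapped between genotypes. Col23a1, a transmembrane collagen, was at 6.75, 2.35 and 18.8 TPM in GR WT and at 4.21, 2.91, 2.59, 8.93 and 3.40 TPM in GR KO (-0.67, adjusted p = 0.586). Without WT replicate 3 its difference was -0.02. Col13a1, another transmembrane collagen, gave -0.68 (adjusted p = 0.601) and -0.03 without WT replicate 3, its levels in GR WT being 1.69, 0.043 and 5.38 TPM. Col16a1, which binds the surface of fibrils and other matrix, gave -0.15 (adjusted p = 0.919) and turned to 0.42 without WT replicate 3. All 6 of the other fibrillar genes, the 3 short chain network collagens and the other 8 fibril-associated genes were under the filter in Treg. So were Col4a3, Col4a4, Col6a4, Col6a5, Col25a1, Col26a1 and Col28a1, none above 0.644 TPM in any library.

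In HFSC, which are not targeted for deletion, no collagen passed the test (0 of 23 by limma with Benjamini-Hochberg adjustment). Of all 12493 genes tested there 0.176% passed, 0.0320% lower and 0.144% higher. The most abundant collagen, Col17a1, differed little between genotypes, and both collagen V chains, Col4a1, Col4a2 and Col18a1 had lower point estimates in GR KO. An unadjusted p under 0.05 was reached by 6 of 23 (Col4a2, Col5a1, Col5a2, Col18a1, Col27a1 and Col4a1), against 16.6% of all genes, and all 6 were lower, against 8.80%. The voom fit, which called 3.87% of all genes and 1.95% lower, called 4 collagens, all lower in GR KO: Col5a1, Col5a2, Col4a2 and Col27a1. The log2 fold change was negative for 19 of 23, against 52.8% of all genes, and the median was -0.19 against -0.02. Groups did not overlap, with GR KO lower, for 5 of 23 (Col5a1, Col5a2, Col27a1, Col4a2 and Col18a1), against 12.8% of all genes, and with GR KO higher for 0 of 23, against 10.7%. GR KO replicate 3 held the lowest level of 11 of the 23. Of the 23, Col8a1 reached 1 TPM through the GR WT mean only. Just inside the filter were Col8a1 (1.28 TPM) and Col20a1 (1.72 TPM), and just outside it Col9a3 (0.900 TPM) and Col9a2 (0.6505 TPM).

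The epithelial collagens were the dominant set of HFSC, and 0 of 4 passed. Col17a1 was at 1154, 1225 and 1141 TPM in GR WT and at 1119, 1303 and 975 TPM in GR KO. The GR KO range enclosed the GR WT range, and the means were 1173 ± 45.3 and 1132 ± 165 TPM (SD, n = 3 each). The log2 fold change of -0.06 (SE 0.12, adjusted p = 0.842) had a 95% interval from -0.34 to 0.22, and it was 0.04 without GR KO replicate 3. Col7a1 was at 97.1, 86.2 and 81.2 TPM in GR WT and at 63.8, 87.4 and 66.0 TPM in GR KO, where replicate 2 lay within the WT range (-0.29, adjusted p = 0.355). Col4a5 (15.5 against 13.3 TPM) and Col4a6 (18.05 against 16.0 TPM) gave -0.19 and -0.12 (adjusted p = 0.642 and 0.846).

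Fibrillar collagens in HFSC were mostly collagen V rather than collagens I and III, the reverse of Treg. Col5a1 and Col5a2 together held 55.9, 56.0 and 56.8 TPM in GR WT and 45.3, 37.7 and 32.3 TPM in GR KO. Col1a1, Col1a2 and Col3a1 together held 4.16, 6.31 and 11.1 TPM in GR WT and 5.05, 9.19 and 4.92 TPM in GR KO. In Treg the collagen V pair held 0.810 to 15.8 TPM and the other 3 genes 9.74 to 72.5 TPM, so the order was turned in all 14 libraries. Other fibroblast markers in HFSC also differed in level. Fbln1, Fbln2 and Fstl1 were at 21.6 to 153 TPM, while Pdgfra, Lum and Dpt were at 0 to 0.252 TPM. Mfap5 and Twist2 were at 0 in every library. Between these stood Dcn (0 to 4.02 TPM), Clec3b (0 to 2.91 TPM), Loxl1 (0 to 0.864 TPM) and Pdgfrb (0 to 0.381 TPM).

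Col5a1 (mm10 chromosome 2, 27886425 to 28039510) was at 33.1, 31.8 and 31.5 TPM in HFSC GR WT and at 27.3, 17.8 and 16.8 TPM in GR KO, and the groups did not overlap. Its log2 fold change was -0.65 (SE 0.19, adjusted p = 0.152), and the voom fit gave -0.73 (adjusted p = 0.0204), in a range of 0.0204 to 0.426 over all settings. Col5a2 (mm10 chromosome 1, 45374331 to 45503282) was at 22.7, 24.2 and 25.3 TPM in GR WT and at 17.97, 19.8 and 15.5 TPM in GR KO, again without overlap (-0.42, adjusted p = 0.198, and -0.50 with adjusted p = 0.0475 by voom, range 0.0475 to 0.493). Both collagen V chains were thus lower in each GR KO library than in any GR WT library. Col3a1, 24625 bases from Col5a2 on the opposite strand, was at 0, 0 and 1.81 TPM in GR WT and at 0, 0.969 and 0 TPM in GR KO, and was not tested. A floor of 3 tags is worth 0.112 to 0.187 TPM for that gene. Col1a1 was at 2.10, 2.42 and 4.43 TPM in GR WT and at 1.81, 3.25 and 3.45 TPM in GR KO (-0.04, adjusted p = 0.968). Col1a2 was also overlapping, at 3.60 ± 1.42 and 3.22 ± 1.75 TPM. Col27a1, a fibrillar collagen known from cartilage, was at 7.58, 6.11 and 12.1 TPM in GR WT and at 6.04, 4.29 and 2.12 TPM in GR KO. The groups were separated by little (-0.93, SE 0.35, adjusted p = 0.250, and -1.19 with adjusted p = 0.0493 by voom, range 0.0493 to 0.548).

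Summed, the fibrillar set of HFSC held 60.02, 62.3 and 67.9 TPM in GR WT and 50.3, 46.8 and 37.2 TPM in GR KO, without overlap. The epithelial set held 1275, 1347 and 1263 TPM in GR WT and 1215, 1418 and 1068 TPM in GR KO, with overlap. Epithelial RNA per fibrillar RNA was 21.2, 21.6 and 18.6 in GR WT and 24.1, 30.3 and 28.7 in GR KO. Col5a1 and Col5a2 held most of the fibrillar sums, at 55.9 to 56.8 TPM in GR WT and 32.3 to 45.3 TPM in GR KO. Col1a1, Col1a2 and Col3a1 together overlapped between genotypes. The fibrillar sums and the ratios are therefore not separate from the collagen V difference. Single genes lower in every GR KO library than in every GR WT library made up 12.8% of those tested in HFSC and 5.10% in Treg, and whether the sums behave differently in the sorts was not tested. Beside this, the 12 fibroblast markers other than Col1a1 and Col3a1 summed to 174, 205 and 243 TPM in GR WT and 172, 163 and 140 TPM in GR KO, with every GR KO sum below every GR WT sum. Most of that sum was Fbln1, Fbln2 and Fstl1, and the markers near 0 did not follow it: Dcn averaged 1.53 TPM in GR WT and 1.67 TPM in GR KO. The 7 keratinocyte markers summed to 24787, 22010 and 19895 TPM in GR WT and to 17691, 18939 and 15734 TPM in GR KO, also without overlap. Most of that sum was Krt5, Krt14 and Krt15. Perp (1301 against 1454 TPM) and Dsp (348 against 358 TPM) averaged higher in GR KO. Of the 8 markers with Col17a1 counted, 6 had a negative and 2 a positive log2 fold change. Only 1 of the 8 (Krt5) was lower without overlap, against 12.8% of all genes. The part of these markers, and of a shift in the make-up of the sorted cells, in the collagen values was not tested.

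Basement membrane collagens of HFSC had 0 of 5 tested members past the threshold. Col18a1, second of the family in level, was at 272, 274 and 272 TPM in GR WT and at 218, 248 and 210 TPM in GR KO. The GR WT libraries were tightly grouped and all GR KO libraries lay below them (-0.28, SE 0.10, adjusted p = 0.215). Col4a1 was at 44.8, 59.9 and 76.4 TPM in GR WT and at 47.1, 36.2 and 41.2 TPM in GR KO, and GR KO replicate 1 lay above GR WT replicate 1 (-0.51, adjusted p = 0.256). Col4a2 was at 38.8, 44.3 and 46.9 TPM in GR WT and at 31.0, 29.6 and 29.9 TPM in GR KO. It had the smallest p of the family in HFSC (-0.50, SE 0.12, adjusted p = 0.114, and -0.58 with adjusted p = 0.0131 by voom, range 0.0131 to 0.364), and its groups did not overlap. Col4a1 and Col4a2 lie head to head on chromosome 8 and overlap by 21 bases at their starts in the annotation. The level of Col4a2 per Col4a1 was 0.740 ± 0.127 in GR WT and 0.734 ± 0.080 in GR KO. Col4a3 (3.73 against 3.70 TPM) and Col4a4 (5.04 against 5.03 TPM), the chains of specialised basement membranes, differed by 0.01 and -0.04 on the log2 scale.

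Collagen VI in HFSC was represented by Col6a1 and Col6a2, with 0 of 2 past the threshold. Col6a1 was at 150, 141 and 122 TPM in GR WT and at 123, 141 and 107 TPM in GR KO (-0.16, adjusted p = 0.583). Col6a2 was at 49.9, 39.2 and 38.1 TPM in GR WT and at 33.4, 39.3 and 28.6 TPM in GR KO (-0.32, adjusted p = 0.360). The genotypes overlapped for both. Col6a3 averaged 0.150 TPM in GR WT and 0.050 TPM in GR KO, close to the floor of 0.069 to 0.115 TPM, although in Treg it was at 1.38 to 16.7 TPM.

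Among the collagens of other classes in HFSC, 0 of 7 tested passed the threshold. The fibril-associated Col16a1 averaged 33.7 TPM in GR WT and 27.8 TPM in GR KO (-0.28, adjusted p = 0.413). Col14a1, which binds fibrils, was widely spread, at 9.13 to 30.3 TPM in GR WT and 6.69 to 18.3 TPM in GR KO. Col12a1 (23.0 against 24.6 TPM) and Col8a2 (20.5 against 22.2 TPM), a short chain network collagen, gave 0.15 and 0.07. The transmembrane Col23a1 gave 0.38 (adjusted p = 0.689), and it was -0.06 without GR KO replicate 3, where it stood at 14.4 TPM against 3.38 to 6.99 TPM elsewhere. Without WT replicate 1, HFSC differences that moved by over 1.5 times were those of Col14a1 (-0.67 to -1.08), Col12a1 (0.15 to -0.13), Col8a2 (0.07 to 0.02) and Col20a1 (-0.08 to 0.23). Among type IV chains they were Col4a5 (-0.19 to -0.35), Col4a6 (-0.12 to -0.40), Col4a3 (0.01 to 0.13) and Col4a4 (-0.04 to 0.04). The others were Col6a1 (-0.16 to -0.0981), Col6a2 (-0.32 to -0.20), Col1a1 (-0.04 to -0.20) and Col1a2 (-0.16 to -0.43). Untested in HFSC were Col3a1, 5 other fibrillar genes, Col15a1, 4 collagen VI chains, 5 fibril-associated genes, Col10a1, Col13a1, Col25a1, Col26a1 and Col28a1, and all of these but Col3a1, Col9a2 and Col9a3 stayed at or under 0.901 TPM in every library.

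**Figure D5:**
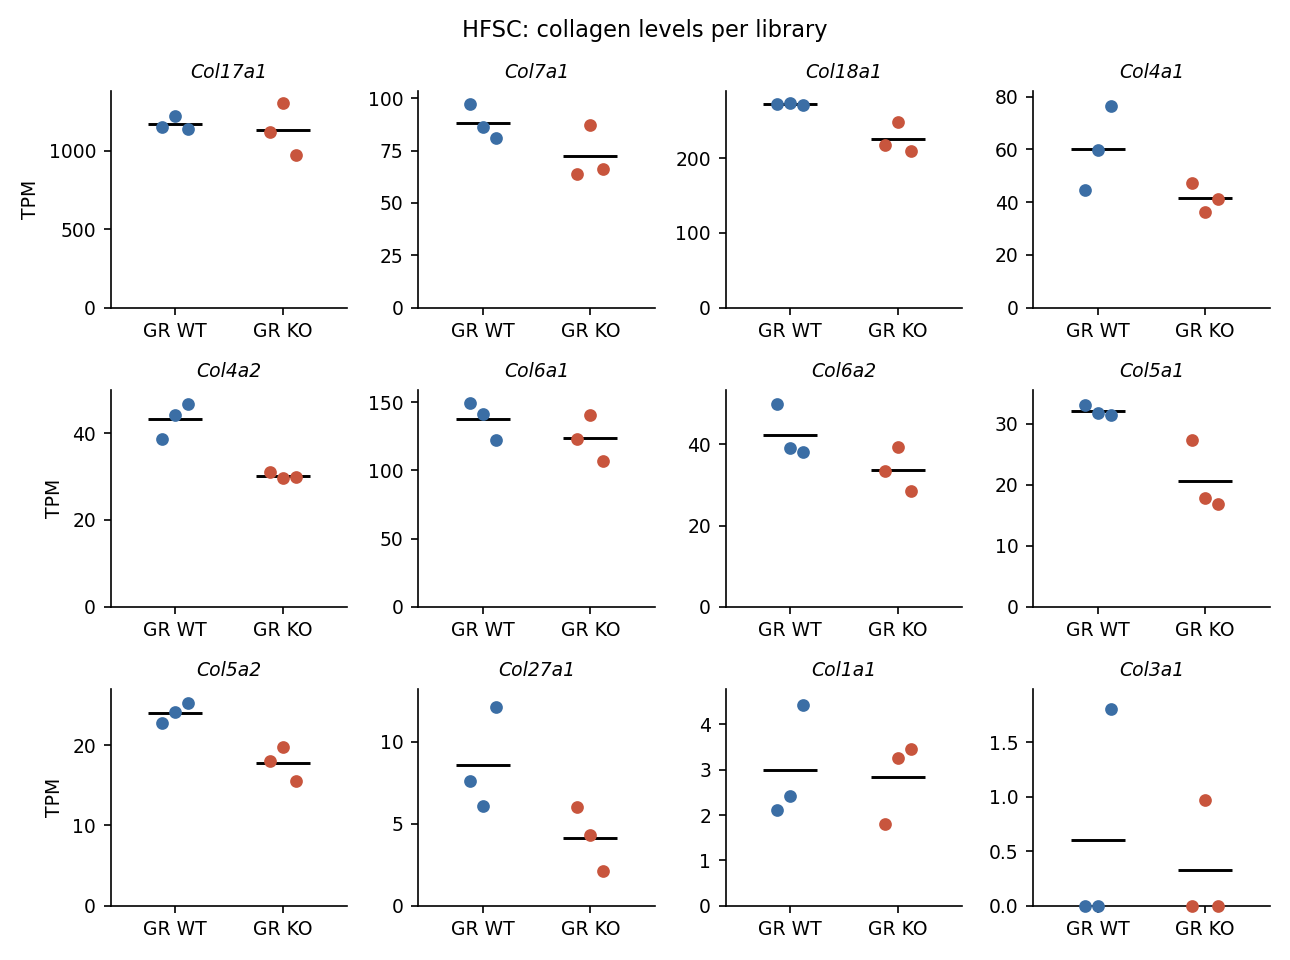
Level in each HFSC library of 12 collagens, in TPM, by genotype; each point is 1 library and each bar a group mean. Col17a1 overlaps between genotypes, and Col18a1, Col4a2, Col5a1, Col5a2 and Col27a1 are lower in every GR KO library than in every GR WT library.

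Of the 11 collagens tested in both sorts, 10 had a negative log2 fold change in both, against 27.9% of all genes tested in both, Col23a1 being the exception. These are point estimates, of which Treg Col17a1 passed the test, and leaving out a library turned the sign of Col16a1, Col6a1 and Col6a2 in Treg and of Col17a1, Col1a1 and Col1a2 in HFSC. None moved in opposite directions without overlap in both sorts. For Col17a1 the log2 fold change was -2.53 in Treg and -0.06 in HFSC, and for Col18a1 -0.49 and -0.28. Whether these effects differ between the sorts was not tested, since the tables were made separately.

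Genes that process, bind or degrade collagen did not pass the test in either sort. Beside the counts below, an unadjusted p under 0.05 was reached by 14.1% of all genes in Treg and 16.6% in HFSC. GR KO was lower without overlap for 5.10% of all genes in Treg and 12.8% in HFSC. Of 20 entries for chain modification and folding, 16 were tested in Treg (0 passed and 0 at an unadjusted p under 0.05, median -0.21) and 18 in HFSC (0 and 3, median -0.05). In HFSC, Serpinh1, the collagen chaperone HSP47, was at 206 ± 28.8 TPM in GR WT and 156 ± 11.6 TPM in GR KO, without overlap (-0.39, adjusted p = 0.190). Ppib, a prolyl isomerase that acts on collagen, was at 394 ± 3.45 and 326 ± 19.4 TPM (-0.28, adjusted p = 0.188), also without overlap. Of the 18 tested in HFSC, 12 log2 fold changes were negative and 6 positive. GR KO was lower without overlap for 3 of them, against 12.8% of all genes. It was higher without overlap for 1 (Mia3, 23.7 against 26.6 TPM), against 10.7%. Of 15 entries for propeptide cleavage and crosslinking, 6 were tested in each sort and 0 passed, with 2 at an unadjusted p under 0.05 in each. In Treg their median was -0.84. Pcolce, which speeds the cleavage of procollagen, was at 14.5 ± 8.21 and 5.06 ± 4.09 TPM (-1.50, adjusted p = 0.264). Tgm2, a transglutaminase, was at 3.90 ± 1.13 and 1.24 ± 1.30 TPM (-1.28, adjusted p = 0.208), the smallest p of that list. Sparc, which binds collagen in the matrix, was at 132 ± 3.06 and 107 ± 13.6 TPM in HFSC (-0.31, adjusted p = 0.236).

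Of 11 collagenases and gelatinases, 7 were tested in Treg and 5 in HFSC, and 0 passed in either. An unadjusted p under 0.05 was reached by 3 and 2, against 14.1% and 16.6% of all genes. GR KO was lower without overlap for 2 in each sort, against 5.10% and 12.8% of all genes. Mmp2, a gelatinase, was at 5.57 ± 1.70 TPM in Treg GR WT and 2.58 ± 0.438 TPM in Treg GR KO, without overlap (-0.85, adjusted p = 0.140). Mmp14, a membrane-bound collagenase that also activates Mmp2, was at 129 ± 18.8 TPM in HFSC GR WT and 88.9 ± 4.67 TPM in HFSC GR KO, again without overlap (-0.53, adjusted p = 0.114). Of 9 collagen receptors 6 were tested in Treg and 4 in HFSC, and 0 passed in either, with 1 and 0 at an unadjusted p under 0.05. Ddr1, a receptor kinase activated by collagen, was at 9.85 ± 3.33 and 5.35 ± 1.197 TPM in Treg (-0.75, adjusted p = 0.195) and at 205 ± 16.7 and 191 ± 2.82 TPM in HFSC (-0.10, adjusted p = 0.644). Of the 11 partners of collagen XVII and collagen VII at the hemidesmosome, 6 were tested in Treg and 11 in HFSC, and 0 passed in either, with 2 and 3 at an unadjusted p under 0.05, against 14.1% and 16.6% of all genes. Itgb4, the integrin chain that binds collagen XVII in the hemidesmosome, was under the filter in Treg, at 1.06, 0.555 and 0.999 TPM in GR WT and at 0.102, 0.022, 0, 0.031 and 0 TPM in GR KO. The groups did not overlap, with 134 tags against 8, and Fermt1, an integrin activator, did not overlap either, with 40 tags against 6. Dst, a plakin gene with several isoforms, is represented in Treg by NM_133833 (17115 bases) and in HFSC by the shorter NM_010081 (8761 bases). In Treg it was at 16.6 ± 5.70 and 8.78 ± 2.78 TPM (-0.85, adjusted p = 0.191). Plec, the other plakin of the hemidesmosome, was at 94.5 ± 6.42 and 78.2 ± 6.96 TPM in HFSC (-0.27, adjusted p = 0.274).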

How the data were processed

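Per the labels' protocols, cells were sorted by FACS into Trizol and libraries came from a stranded mRNA kit. FastQC, Trim Galore, STAR, HOMER and the build mm10 are named in the submitters' processing notes. Tool versions and the use of strand in counting are not stated there, so overlapping genes such as Col4a1 and Col4a2 may share reads. The authors deposited TPM values, 1 table per cell type with 1 RefSeq transcript and its length per symbol. For Col2a1, Col4a5 and Col26a1 this transcript differs between the 2 tables. Whole tags could be recovered from TPM and length for 100% of low values within 0.1 of a tag. Tags per gene were mostly even numbers (78.0% to 86.2% per library), so both mates seem counted and tags are not independent molecules. Floors of 3 tags cover counting error only.

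The test was limma 3.58.1 (R 4.3.3), two-sided, run per table on log2(TPM + 1) for genes averaging 1 TPM or more, using a trended prior. Benjamini-Hochberg adjustment covered all tested genes, and the threshold was 0.05. Fold changes are GR KO against GR WT on that scale and understate those of genes near 1 TPM. Members, sets and lists were chosen with earlier results of these data known. Named genes are Col17a1, Col1a1, Col3a1, the 6 most abundant and the 6 of smallest p per table, any past the threshold, and up to 3 others per list; genes outside this rule were added with their values known. The model was checked on simulated data that gave every gene the same relative spread beyond counting error. Such data do not match the wide spread of Treg members such as Col6a1 and Col3a1. Alternatives were the pseudocount (0.1 and 5 TPM), the filter (none and 5 TPM), median ratio scaling, voom on recovered tags, a replicate block and leaving out each library. The count of negative differences was chosen after seeing the data.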

Additional observations from a re-analysis of the deposited data

Results flagged for a closer look

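Of 15 sets of 5 GR KO Treg libraries checked, 1 per tested collagen, 1 held a library far from the others: Col23a1 stood at 8.93 TPM in GR KO replicate 4, against 2.59 to 4.21 TPM in the other 4. Chance flags about 1 in 20 such sets. The groups of 3 were not checked in this way.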

How the results depend on the processing

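Same-numbered samples did not deviate together (correlations 0.17, 0.087 and -0.117 in Treg, 0.0156, 0.0619 and -0.0420 in HFSC), so the replicate numbers were not taken as pairs. With the replicate block, 78 genes were called in Treg (175 without it) and 66 in HFSC (22 without it), with 1 and 0 collagens as before. The Col17a1 call in Treg held under every setting that tested it, at -2.23 to -2.68 when each library was left out. With a filter of 5 TPM, 0 collagens were called in Treg, because Col17a1 was not tested there. All genes called in Treg ranged from 79 to 177 over left-out libraries.

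In HFSC the calls moved with the processing. All genes called numbered 2 with no filter, 48 with the 5 TPM filter, 69 with median ratio scaling, 483 with voom and 0 to 4 with a library left out, and collagens called numbered 4 with voom. The cause was not tested. The median epithelial difference in Treg, -0.39 over all 4 members, was -1.44 and -0.11 with pseudocounts of 0.1 and 5 TPM. It was -2.53 (-5.62 by voom, -2.44 with the block) for members of at least 1 TPM, where Col17a1 is the one left, and no member reached 5 TPM. The HFSC fibrillar median, -0.17, ranged from -0.50 to 0.0370 over left-out libraries, and the HFSC GR WT fibrillar sum was 72.9 TPM with all fibrillar collagens in place of 63.4 TPM.

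Signs turned in 3 Treg members over left-out libraries: Col16a1 (-0.72 to 0.42), Col6a1 (-1.14 to 0.38) and Col6a2 (-1.14 to 0.0880). They turned in 10 HFSC members: Col12a1 (-0.13 to 0.34), Col17a1 (-0.17 to 0.0422), Col1a1 (-0.20 to 0.21), Col1a2 (-0.46 to 0.18), Col20a1 (-0.39 to 0.23, and 0.0263 by voom), Col23a1 (-0.0588 to 0.76), Col4a3 (-0.17 to 0.13), Col4a4 (-0.25 to 0.14), Col4a6 (-0.40 to 0.0598) and Col8a2 (-0.15 to 0.25). The count of negative differences in HFSC was 17 to 20 with a library left out and 18 by voom. For a 2000-base transcript, 3 tags were worth 0.138 to 0.207 TPM in Treg and 0.308 to 0.515 TPM in HFSC. Lower levels at that length rest on fewer than 3 tags in a library.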
